A study of Homo sapiens with 12 samples.

Results

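The interaction of MycER activation with the shRNA background was examined in newly made RNA of U2OS-MycER cells. It was measured as the log2 fold change with OHT in the libraries labelled shCDK12 minus the log2 fold change with OHT in shNT. All 12 libraries of the series entered one fit, 3 for each of 4 groups, and 11699 of the 23434 genes of the count table passed the filter on low counts. U2OS-MycER is a human osteosarcoma line carrying MYC fused to the ligand-binding domain of the estrogen receptor, which OHT (4-hydroxytamoxifen) activates. The 4 groups were shNT (a non-targeting hairpin) without OHT, shNT_OHT, shCDK12 (a hairpin against CDK12) without OHT, and shCDK12_OHT, with OHT given at 300 nM for 40 h. Cells of all 4 groups received 1 µg/mL doxycycline to express the hairpin, 100 ng/mL nocodazole for 8 h, mitotic shake-off, 12 h of release, and 0.5 mM 5-ethynyl-uridine (EU) for 2 h, so the untreated controls share the block and release. The labels give no sequence of the hairpin against CDK12, and they do not say whether the 3 libraries of a group came from separate cultures, so p-values measure the spread between libraries, which may be technical.

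MYC binds E-box DNA with its partner MAX and is known for raising genes of ribosome production, translation, nucleotide supply and metabolism, while a large set of other genes is lower when MYC is active. CDK12, with its partner cyclin K, phosphorylates the tail of RNA polymerase II during elongation and is known for keeping up the transcription of long genes and DNA repair genes. An interaction of zero means that a gene changed by the same fold upon MycER activation in both shRNA backgrounds, a negative one that the fold was lower in the libraries labelled shCDK12, and a positive one that it was higher there.

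The targeted gene was below shNT with OHT but not without it. CDK12 was at 323, 289 and 300.2 CPM in shNT, 434, 356 and 400.5 in shNT_OHT, 293, 277 and 298 in the libraries labelled shCDK12 and 215, 208 and 218 in those labelled shCDK12_OHT, where CPM is the TMM-normalized count scaled to a common library total. Without OHT the libraries labelled shCDK12 overlapped shNT, with a log2 difference of -0.07 ± 0.09 (edgeR adjusted p = 0.528). With OHT the libraries labelled shCDK12_OHT were the lowest of all and below every shNT_OHT library, with a log2 difference of -0.90 ± 0.09 (edgeR adjusted p = 2.42e-07). Among all tested genes these contrasts of labelled shCDK12 with shNT passed for 56.6% without OHT (26.6% higher, 30.1% lower) and 51.6% with OHT (26.3% higher, 25.3% lower). The libraries labelled shCDK12 were also all below shNT_OHT, and those labelled shCDK12_OHT all below shNT. CDK12 thus went against its label in the libraries without OHT, and the names below are those of the labels. Both responses stand beside an interaction, since the log2 fold in shNT compares shNT libraries only. Its standard error and its call come from the fit of all 12 libraries. Where the library values of a gene are not printed, its log2 responses in shNT and in the libraries labelled shCDK12 follow the interaction, in that order, after the word from.

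Library totals ran from 1251695 to 10447836 counts, and the shNT_OHT libraries were the shallowest group (1251695 to 3666406) while those labelled shCDK12_OHT were the deepest (5378438 to 10447836), so depth moved with the groups. In a principal component analysis of 500 genes, the first component (65.1% of the variance) separated the shNT from the labelled shCDK12 libraries. On the second (17.7%), the 3 shNT and the 3 labelled shCDK12_OHT libraries lay on the positive side, and the 3 shNT_OHT and the 3 labelled shCDK12 libraries on the negative side, with replicate 1 of shNT_OHT the farthest out (-17.8 against -10.7 and -10.5). The sign of the OHT response in the libraries labelled shCDK12 rests on their OHT labels alone, and no row of the table measures the drug. With these labels exchanged every response in the libraries labelled shCDK12 would have the other sign. Of 7 mesenchymal markers 5 were read in every library (VIM at 169 to 344 CPM), while COL1A2 and TWIST1 were at or near 0. Of 5 epithelial markers KRT18 stood at 352 to 579 CPM, KRT8 at 227 to 386, CDH1 at 3.99 to 12.2, EPCAM at 0 to 9.55 and KRT19 at 0. The 3 haematopoietic markers stayed under 1.37 CPM.

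The interaction passed the threshold (adjusted p under 0.05, edgeR quasi-likelihood test) for 5289 genes, 45.2% of those tested. It was higher for 2994 genes (25.6%) and lower for 2295 (19.6%), and the median over all tested genes was 0.10 on the log2 scale, or -0.016 under upper-quartile scaling. A change of at least 2-fold was reached by 1646 of the higher and 1124 of the lower genes, and of at least 8-fold by 27 and 44. MycER activation alone passed for 3256 genes in shNT (27.8%, 13.5% higher and 14.4% lower) and for 4373 genes in the libraries labelled shCDK12 (37.4%, 21.5% higher and 15.9% lower). Both responses passed for 1942 genes, and 1879 of these (96.8%) went in opposite directions, against 63 in the same direction. With the OHT labels of the libraries labelled shCDK12 exchanged, the 1879 would go in the same direction and the 63 in opposite ones, so the share holds for the labels as given. Each of the 1879 had an interaction past the threshold, which nearly follows from 2 opposite responses, since the interaction is their difference.

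**Figure D1:**
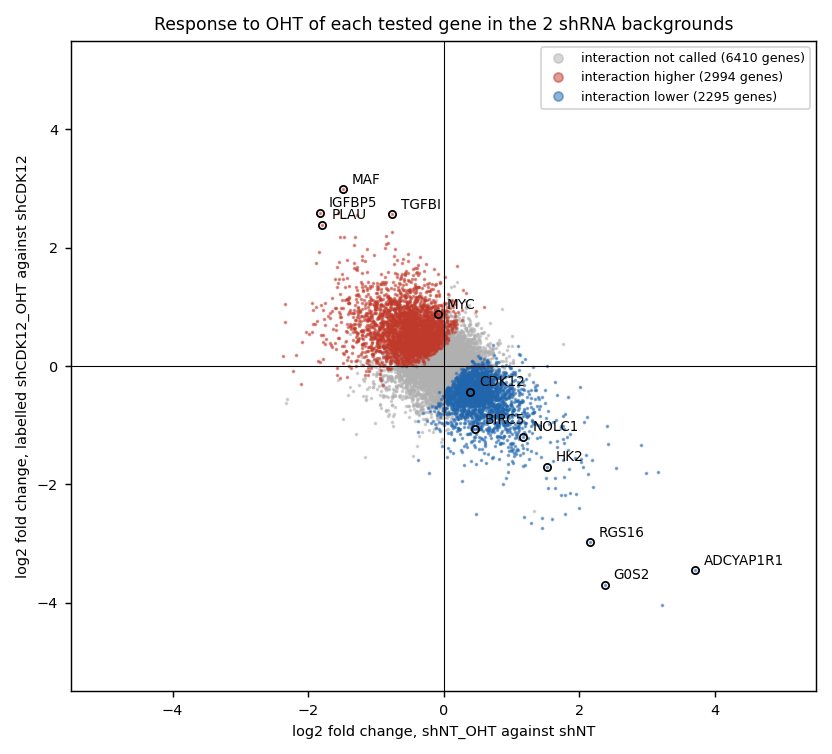
Log2 fold change with OHT in shNT (horizontal axis) and in the libraries labelled shCDK12 (vertical axis) for each of the 11699 tested genes, coloured by the interaction, with 12 genes named. The 993 genes that fell in shNT and rose in the libraries labelled shCDK12 lie at the upper left, and the 886 genes with the opposite pattern lie at the lower right.

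Among the 2994 higher genes, 993 (33.2%) fell in shNT and rose in the libraries labelled shCDK12, 525 fell in shNT alone, 1112 rose in the libraries labelled shCDK12 alone, and 362 passed in neither. Among the 2295 lower genes, 886 (38.6%) rose in shNT and fell in the libraries labelled shCDK12, 504 rose in shNT alone, 666 fell in the libraries labelled shCDK12 alone, and 238 passed in neither. The interaction, not a call in 1 background alone, is the test of a difference between the backgrounds.

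The genes of the MYC network itself were split. MYC was at 2221, 2044 and 2013 CPM in shNT, 2199, 1706 and 1997 in shNT_OHT, 1214, 1035 and 1122 in the libraries labelled shCDK12 and 2091, 2095 and 2000.4 in those labelled shCDK12_OHT. The 2 shNT groups overlapped, and the libraries labelled shCDK12 were the only low group, with an interaction of 0.96 ± 0.13 (edgeR adjusted p = 7.93e-06). Reads of the MycER transgene and of the endogenous gene share this row and cannot be told apart. MXD4, a MAX partner that opposes MYC, stood at 24.6, 24.4 and 20.5 CPM without OHT and 12.2, 9.07 and 10.4 with OHT in shNT, and at 19.0, 13.2 and 15.7 without and 42.5, 43.4 and 40.8 with OHT in the libraries labelled shCDK12. Neither pair of groups overlapped, and its interaction was 2.53 ± 0.27 (edgeR adjusted p = 4.58e-07). MAX, the common partner, was lower (-0.75 ± 0.15, edgeR adjusted p = 0.000392, from 0.44 and -0.31), as was MLXIP, a sugar-sensing member of the wider network (-1.60 ± 0.23, edgeR adjusted p = 1.43e-05, from 0.68 and -0.92). Of the 10 tested members 3 were higher and 3 lower. CDK13, the closest relative of CDK12, and CCNK, its cyclin, did not pass, at 0.21 ± 0.14 (edgeR adjusted p = 0.235, from -0.24 and -0.03) and 0.29 ± 0.21 (edgeR adjusted p = 0.275, from -0.24 and 0.05).

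The 8 lowest and the 8 highest interactions were taken among genes with a mean of at least 10 CPM that passed in the fit of 12 libraries and in each of 12 fits leaving out 1 library. ADCYAP1R1, the receptor of the neuropeptide PACAP, was at 6.09, 1.37 and 0.501 CPM in shNT, 45.1, 28.9 and 40.0 in shNT_OHT, 75.5, 51.5 and 59.6 in the libraries labelled shCDK12 and 4.08, 6.27 and 6.53 in those labelled shCDK12_OHT. It was high in shNT_OHT and in the libraries labelled shCDK12 and low in the other two groups, with an interaction of -7.17 ± 0.48 (edgeR adjusted p = 7.78e-10). Its shNT counts were 26, 7 and 1, near the floor, and without replicate 1 of shNT the interaction of ADCYAP1R1 was -8.56. RGS16, a brake on G-protein signalling, was at 97.4, 102 and 102 CPM in shNT, 502, 417 and 421 in shNT_OHT, 1106, 976 and 1103 in the libraries labelled shCDK12 and 134, 142 and 128 in those labelled shCDK12_OHT. Upon MycER activation it rose 4.45-fold in shNT and fell 7.87-fold in the libraries labelled shCDK12, with no overlap in either pair and an interaction of -5.13 ± 0.14 (edgeR adjusted p = 1.53e-15). G0S2, an inhibitor of lipid breakdown, had the values 5.15, 7.81 and 6.52 CPM in shNT, 26.3, 32.2 and 42.9 in shNT_OHT, 16.2, 18.8 and 18.3 in the libraries labelled shCDK12 and 0.679, 1.81 and 1.45 in those labelled shCDK12_OHT. The log2 response was 2.38 in shNT and -3.70 in the libraries labelled shCDK12, giving -6.08 ± 0.42 (edgeR adjusted p = 9.74e-10). G0S2 had only 5, 19 and 8 counts in the libraries labelled shCDK12_OHT, near the floor. PEG3, an imprinted zinc finger gene, followed with -4.40 ± 0.16 (edgeR adjusted p = 1.03e-13, from 1.99 and -2.40) and had its highest values (731, 664 and 712 CPM) in the libraries labelled shCDK12 without OHT. The others were ABCA3, a lipid transporter, GALNT18, an enzyme of mucin-type glycosylation, PDZRN3, a ubiquitin ligase, and RASD2, a small GTPase. Their interactions were -4.95 (from 3.16 and -1.80), -4.79 (from 2.98 and -1.81), -4.24 (from 2.20 and -2.05) and -4.18 (from 1.60 and -2.58). Each had a rise in shNT and a fall in the libraries labelled shCDK12 that passed. In shNT ABCA3 had 10, 14 and 11 counts and GALNT18 had 7, 8 and 8, so their folds are imprecise.

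Among the 8 highest interactions, MAF, a bZIP transcription factor, was at 247, 236 and 231 CPM in shNT, 80.2, 93.2 and 83.2 in shNT_OHT, 11.6, 20.5 and 12.0 in the libraries labelled shCDK12 and 129, 121 and 116 in those labelled shCDK12_OHT. It fell 2.81-fold upon MycER activation in shNT and rose 7.95-fold in the libraries labelled shCDK12, an interaction of 4.48 ± 0.22 (edgeR adjusted p = 9.45e-12). PLAU, the urokinase that activates plasminogen, stood at 174, 177 and 161 CPM without OHT and 56.1, 34.6 and 52.5 with OHT in shNT, and at 14.8, 10.8 and 9.07 without and 53.7, 65.0 and 60.6 with OHT in the libraries labelled shCDK12. The groups of neither pair overlapped, and the interaction was 4.18 ± 0.24 (edgeR adjusted p = 7.88e-11). IGFBP5, which binds insulin-like growth factors, was at 90.4, 79.6 and 83.7 CPM in shNT, 31.6, 20.6 and 18.3 in shNT_OHT, 0.232, 1.68 and 0.740 in the libraries labelled shCDK12 and 6.93, 6.85 and 5.62 in those labelled shCDK12_OHT. Its values in the libraries labelled shCDK12 lay near the floor, so the fold there is imprecise, and the interaction was 4.41 ± 0.43 (edgeR adjusted p = 1.1e-07), or 5.41 without replicate 2 of the libraries labelled shCDK12. SESN3, a sestrin that restrains mTORC1, had 136, 137 and 136 CPM in shNT, 32.6, 47.0 and 34.8 in shNT_OHT, 28.0, 30.7 and 23.7 in the libraries labelled shCDK12 and 95.6, 88.9 and 94.7 in those labelled shCDK12_OHT. It was highest in shNT, and its interaction was 3.64 ± 0.20 (edgeR adjusted p = 3.92e-11). AHNAK2, a giant scaffold protein, ACKR3, a chemokine scavenger receptor, TNFSF15, a TNF-family ligand, and LINC03033, a noncoding RNA, had interactions of 3.65 (from -1.47 and 2.18), 3.49 (from -1.32 and 2.17), 3.39 (from -2.34 and 1.05) and 3.84 (from -1.28 and 2.56), each with a fall in shNT and a rise in the libraries labelled shCDK12 that passed. LINC03033 had 1, 4 and 8 counts in the libraries labelled shCDK12, and without replicate 3 of these its interaction was 4.72.

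**Figure D2:**
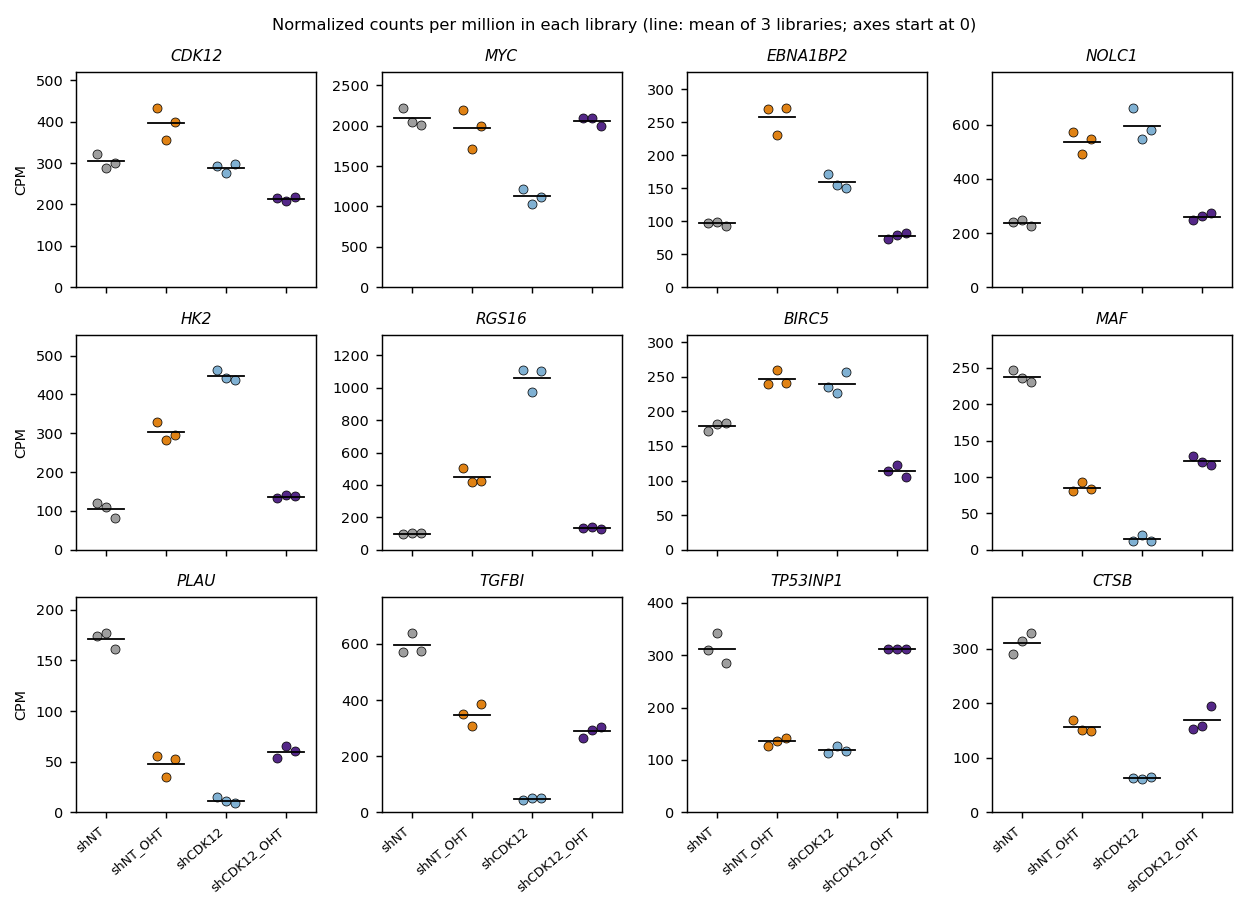
Normalized counts (CPM, vertical axes, each from 0) of 12 genes in the 12 libraries, one point per library and a line at the mean of 3, for the groups as labelled. MYC is low in the libraries labelled shCDK12 alone, the ribosome biogenesis genes EBNA1BP2 and NOLC1 are high in shNT_OHT and labelled shCDK12, and MAF, PLAU, TGFBI and CTSB are highest in shNT.

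Gene classes were compared through 45 lists, and some genes stand in more than 1 list. The bulk libraries cannot tell fewer cells of a kind from less RNA per cell, and a list is described here by its counts and its median beside those of all tested genes (25.6% higher, 19.6% lower, median 0.10). In 49 of 60 nucleolar ribosome biogenesis factors (81.7%) the interaction was lower and in none was it higher, the largest share of lower genes among the 45 lists. The largest share of higher genes was in the matrix proteases, plasminogen activators and inhibitors, with 23 of 26 (88.5%). In the first list the median response was 0.43 in shNT and -0.50 in the libraries labelled shCDK12, and in the second -0.49 and 0.76. The responses in each list were thus of opposite sign, and with the OHT labels of the libraries labelled shCDK12 exchanged they would have the same sign, so the shares and the order of the lists hold for the labels as given.

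**Figure D3:**
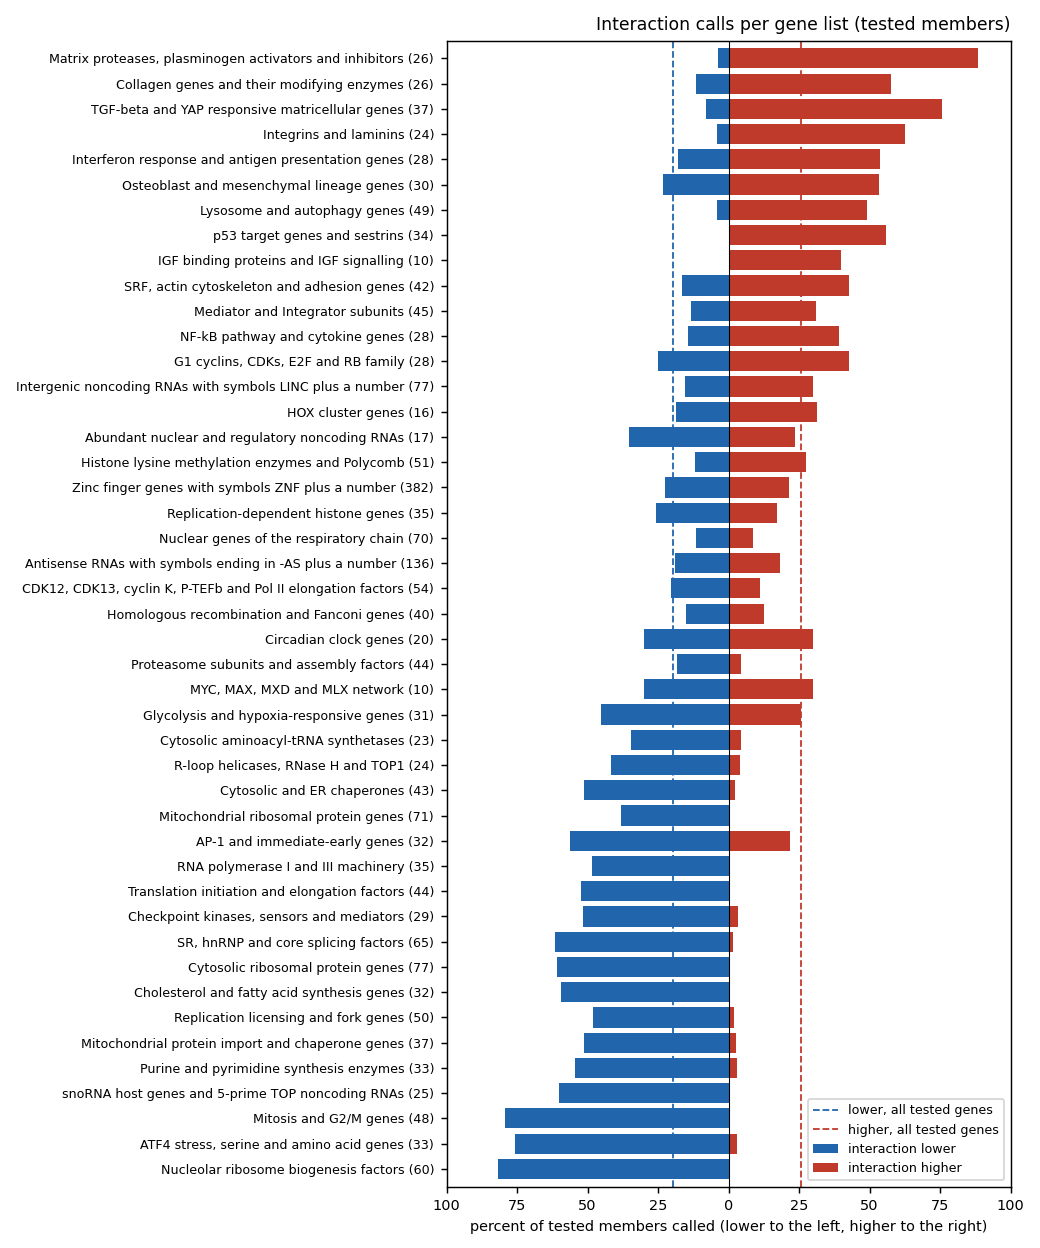
Percent of the tested members of 45 gene lists with a lower (bars to the left) or higher (bars to the right) interaction, ordered by the list median, with the number of tested members in brackets and dashed lines at 19.6% and 25.6% for all tested genes. The ribosome biogenesis, ATF4 and mitosis lists stand at one end, with at most 1 higher gene each, and the protease, collagen and TGF-beta lists at the other, with at most 3 lower genes each.

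Ribosome biogenesis factors assemble and modify ribosomal RNA in the nucleolus, and MYC is known for driving them. Relative to the shNT mean, the mean log2 CPM of the 60 genes was 0.50, 0.55 and 0.58 in shNT_OHT, 0.48, 0.48 and 0.45 in the libraries labelled shCDK12 and -0.09, -0.02 and -0.05 in those labelled shCDK12_OHT. The list was thus high in shNT_OHT and labelled shCDK12 and near shNT in labelled shCDK12_OHT, with no overlap between the 2 levels. Upon MycER activation 36 genes rose and 0 fell in shNT, while 0 rose and 42 fell in the libraries labelled shCDK12. The median interaction was -1.03, and all 60 values were negative (-2.44 to -0.04). NOLC1, a nucleolar chaperone of modification complexes, was at 240.3, 248 and 226 CPM in shNT, 574, 492 and 546 in shNT_OHT, 662, 547 and 582 in the libraries labelled shCDK12 and 247, 261 and 272 in those labelled shCDK12_OHT. The rise of 2.26-fold in shNT stood against a fall of 2.29-fold in the libraries labelled shCDK12, with an interaction of -2.37 ± 0.14 (edgeR adjusted p = 9.51e-11). EBNA1BP2, which acts in large subunit assembly, had 97.4, 99.3 and 93.2 CPM in shNT, 270.1, 231 and 272 in shNT_OHT, 172, 154 and 150.3 in the libraries labelled shCDK12 and 72.9, 79.8 and 81.8 in those labelled shCDK12_OHT, again without overlap in either pair, and an interaction of -2.44 ± 0.15 (edgeR adjusted p = 2.25e-10).

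The promoters of some of these genes hold the MYC E-box CACGTG, a palindrome read the same on both strands. Windows from 250 bases before to 50 after the gene start were taken from RefSeq (GRCh38.p14) and matched 9409 of the 11699 tested genes by gene identifier. CACGTG was in 7.43% of all 27305 windows, in 10.4% of those of tested genes, in 8.15% of the genes with a higher interaction and in 11.8% of those with a lower one. In the ribosome biogenesis list it was in 23 of 51 windows (45.1%). Other lists with mostly lower interactions ranged widely, such as RNA polymerases I and III (24.1%) and cytosolic ribosomal proteins (4.84%). So did lists with mostly higher ones, such as lysosome and autophagy genes (21.6%) and collagens (0%). Genes without a called interaction held CACGTG in 10.9% of their windows. The following stretches show it (in capitals) in 3 named genes with a lower and 2 with a higher interaction, written 5′ to 3′ on the gene's strand, because both directions hold it.
EBNA1BP2: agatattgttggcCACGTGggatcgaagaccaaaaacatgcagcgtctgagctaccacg
GTF3C4: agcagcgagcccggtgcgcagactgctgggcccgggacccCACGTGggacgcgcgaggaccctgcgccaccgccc
EIF4A3: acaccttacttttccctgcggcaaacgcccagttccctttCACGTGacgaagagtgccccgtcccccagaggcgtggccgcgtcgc
MXD4: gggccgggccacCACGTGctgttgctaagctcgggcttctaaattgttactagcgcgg
BHLHE40: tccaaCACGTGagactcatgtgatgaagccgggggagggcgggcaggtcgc
They lie at chr1:43172762-43172820 (minus strand), chr9:132669960-132670034 (plus), chr17:80147204-80147289 (minus), chr4:2262302-2262359 (minus) and chr3:4979187-4979237 (plus), all upstream of the annotated start. Among the 974 tested genes with CACGTG in the window 20.3% were higher and 22.3% lower, against 26.4% and 19.2% of the 8435 without it. The letters are a description of these windows and not of bound MYC.

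Of 35 genes of RNA polymerases I and III, which make ribosomal and transfer RNA, 17 were lower and 0 higher. POLR1E, a polymerase I subunit, was at 149, 152 and 131 CPM in shNT, 266, 254 and 276 in shNT_OHT, 229, 208 and 219.7 in the libraries labelled shCDK12 and 125, 135 and 137 in those labelled shCDK12_OHT. Both pairs were apart, and the interaction was -1.60 ± 0.14 (edgeR adjusted p = 2.17e-08). GTF3C4, of the polymerase III factor TFIIIC, had -1.15 ± 0.12 (edgeR adjusted p = 4.25e-07, from 0.53 and -0.62). Among 77 cytosolic ribosomal protein genes 47 were lower and 0 higher, with 45 rising in shNT and 21 falling in the libraries labelled shCDK12. The list's mean level, relative to shNT, was 0.31, 0.25 and 0.54 in shNT_OHT, 0.21, 0.28 and 0.31 in labelled shCDK12 and -0.00054, 0.12 and 0.07 in labelled shCDK12_OHT. RPL18, of the large subunit, had an interaction of -1.16 ± 0.13 (edgeR adjusted p = 6.28e-07, from 0.58 and -0.58). Ribosomal protein genes have many processed copies, so their counts depend on how the submitters assigned shared reads.

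Host genes of small nucleolar RNAs, which carry them in their introns, had 15 of 25 members lower and 0 higher. SNHG17 was at 145, 137 and 142 CPM in shNT, 289, 256 and 260.1 in shNT_OHT, 247, 219 and 244 in the libraries labelled shCDK12 and 143, 132 and 133 in those labelled shCDK12_OHT. Neither pair overlapped, and the interaction was -1.73 ± 0.14 (edgeR adjusted p = 7.08e-09). NOP56, a core protein of these particles and a host itself, had -1.94 ± 0.15 (edgeR adjusted p = 7.08e-09, from 0.93 and -1.01). Of 81 tested genes annotated as small nucleolar RNAs, 27 were lower and 1 was higher, with a median of -0.70. The share called either way was 34.6%, against 45.2% of all tested genes. SNHG17 and NOP56 overlap small nucleolar RNA genes on the same strand. Reads of host and small nucleolar RNA may thus be shared, and the 2 results are not separate.

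Mitochondrial ribosomal protein genes were lower for 27 of 71 and higher for 0, with MRPS17 (-1.68 ± 0.20, edgeR adjusted p = 1.35e-06, from 0.94 and -0.74) and MRPS25 (-1.45 ± 0.17, edgeR adjusted p = 1.35e-06, from 0.78 and -0.67) having the smallest p-values. Genes of mitochondrial protein import had 19 lower and 1 higher of 37. TOMM40, the channel of the outer membrane, stood at 146, 119 and 128 CPM without OHT and 225, 231 and 237 with OHT in shNT, and at 160.3, 139 and 130.1 without and 87.6, 91.8 and 84.7 with OHT in the libraries labelled shCDK12. Its groups did not overlap in either pair, and the interaction was -1.52 ± 0.16 (edgeR adjusted p = 2.38e-07). The nuclear genes of the respiratory chain, by contrast, had 6 higher and 8 lower of 70, shares of 8.57% and 11.4% that are both below those of all tested genes. Without replicate 3 of the libraries labelled shCDK12, 9 of these genes passed in place of 14. CYCS, cytochrome c, was one of the lower ones (-0.99 ± 0.17, edgeR adjusted p = 8.72e-05, from 0.44 and -0.56).

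Translation factors were lower for 23 of 44 and higher for 0. EIF5A, which helps ribosomes through stalls, was at 173, 176 and 179 CPM in shNT, 399, 287 and 338 in shNT_OHT, 365, 343 and 401 in the libraries labelled shCDK12 and 248, 221 and 199 in those labelled shCDK12_OHT. MycER activation raised it 1.95-fold in shNT and lowered it 1.66-fold in the libraries labelled shCDK12, an interaction of -1.69 ± 0.16 (edgeR adjusted p = 1.02e-07). EIF4A3, a helicase of the exon junction complex, had -1.57 ± 0.16 (edgeR adjusted p = 2.38e-07, from 0.77 and -0.80). Of 23 aminoacyl-tRNA synthetase genes 8 were lower, led by KARS1 (-1.26 ± 0.14, from 0.76 and -0.50) and VARS1 (-1.34 ± 0.18, from 0.85 and -0.49), and 1 was higher, QARS1 (0.68 ± 0.21, edgeR adjusted p = 0.0124, from -0.27 and 0.41).

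Amino acid and stress genes driven by ATF4 formed the list with the highest median response in shNT (0.56). Of its 33 tested members 25 were lower and 1 higher, with a median interaction of -0.89. The list's mean level, relative to shNT, was 0.56, 0.38 and 0.53 in shNT_OHT. It was -0.15, -0.22 and -0.21 in labelled shCDK12 and -0.53, -0.43 and -0.51 in labelled shCDK12_OHT. ATF3, a stress-induced repressor, was at 273, 259.6 and 231 CPM in shNT, 664, 652 and 847 in shNT_OHT, 1111, 1172 and 1399 in the libraries labelled shCDK12 and 749, 853 and 782 in those labelled shCDK12_OHT. It rose 2.83-fold in shNT and fell 1.54-fold in the libraries labelled shCDK12 to a level above every untreated shNT library. ATF3 thus stood above shNT in both labelled shCDK12 groups, where the list mean was below shNT. Its interaction was -2.13 ± 0.16 (edgeR adjusted p = 3.64e-09). CTH, which makes cysteine, had -2.40 ± 0.29 (edgeR adjusted p = 1.38e-06, from 0.96 and -1.44). The exception was SLC38A2, a glutamine transporter, which fell in shNT and rose in the libraries labelled shCDK12 (0.91 ± 0.21, edgeR adjusted p = 0.00168, from -0.45 and 0.46).

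Nucleotide synthesis enzymes were lower for 18 of 33. IMPDH1, the entry to guanine nucleotides, was at 28.8, 26.5 and 29.6 CPM in shNT, 74.9, 57.7 and 53.9 in shNT_OHT, 70.4, 63.5 and 66.6 in the libraries labelled shCDK12 and 30.2, 36.0 and 30.7 in those labelled shCDK12_OHT. Neither pair of groups overlapped, and the interaction was -2.19 ± 0.21 (edgeR adjusted p = 1.02e-07). PAICS, of purine synthesis, had -1.32 ± 0.15 (edgeR adjusted p = 1.04e-06, from 0.46 and -0.86). The 1 higher member was RRM2B, the p53-inducible ribonucleotide reductase subunit, with log2 responses of -0.62 in shNT and 0.77 in the libraries labelled shCDK12 (edgeR adjusted p = 3.09e-05 for the interaction). Genes of cholesterol and fatty acid synthesis had 19 lower and 0 higher of 32. SCD, the desaturase of fatty acids, was at 585, 575 and 542 CPM in shNT, 1309.6, 1269 and 1343 in shNT_OHT, 891, 838 and 887 in the libraries labelled shCDK12 and 423, 443 and 477 in those labelled shCDK12_OHT. The highest group was shNT_OHT and the lowest labelled shCDK12_OHT, with an interaction of -2.17 ± 0.12 (edgeR adjusted p = 3.48e-11). DHCR7, the last enzyme of cholesterol synthesis, had -2.63 ± 0.17 (edgeR adjusted p = 3.6e-10, from 1.42 and -1.20).

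Glycolysis and hypoxia-responsive genes were split, with 14 lower and 8 higher of 31. HK2, the hexokinase at the entry of glycolysis, was at 120.2, 111 and 82.2 CPM in shNT, 328, 283 and 297 in shNT_OHT, 462, 442 and 437 in the libraries labelled shCDK12 and 134, 139.9 and 137 in those labelled shCDK12_OHT. In shNT it rose 2.87-fold and in the libraries labelled shCDK12 it fell 3.26-fold, and the interaction was -3.23 ± 0.16 (edgeR adjusted p = 1.17e-11). SLC16A1, the lactate transporter, rose 1.84-fold and fell 2.00-fold, with an interaction of -1.88 ± 0.14. SLC2A3, a glucose transporter, was the reverse, at 317, 329 and 259.6 CPM without OHT and 169, 176 and 179.8 with OHT in shNT, and at 141, 146 and 148 without and 297, 323 and 304 with OHT in the libraries labelled shCDK12. It was high in shNT and labelled shCDK12_OHT and low in the other two groups (1.88 ± 0.14, edgeR adjusted p = 3.92e-09).

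Chaperones of the cytosol and endoplasmic reticulum were lower for 22 of 43 and higher for 1, with HSPA5 (BiP) at -1.30 ± 0.13 (edgeR adjusted p = 1.12e-07) and HSP90B1, its partner in the endoplasmic reticulum, at -1.43 ± 0.15 (edgeR adjusted p = 4.22e-07, from 0.60 and -0.84). HSPA5 stood at 238, 249 and 233 CPM in shNT, 371, 327 and 369 in shNT_OHT, 414, 392 and 429 in the libraries labelled shCDK12 and 245, 253 and 244 in those labelled shCDK12_OHT. No library of labelled shCDK12_OHT reached the lowest of labelled shCDK12. Proteasome genes had 8 lower and 2 higher of 44, near or below the shares of all tested genes. ADRM1, a ubiquitin receptor, and PSMG1, an assembly chaperone, were among the lower ones, at -1.13 (from 0.48 and -0.65) and -2.60 (from 1.38 and -1.22), and PSMD5, another assembly chaperone, was higher (1.04, from -0.41 and 0.63).

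**Figure D4:**
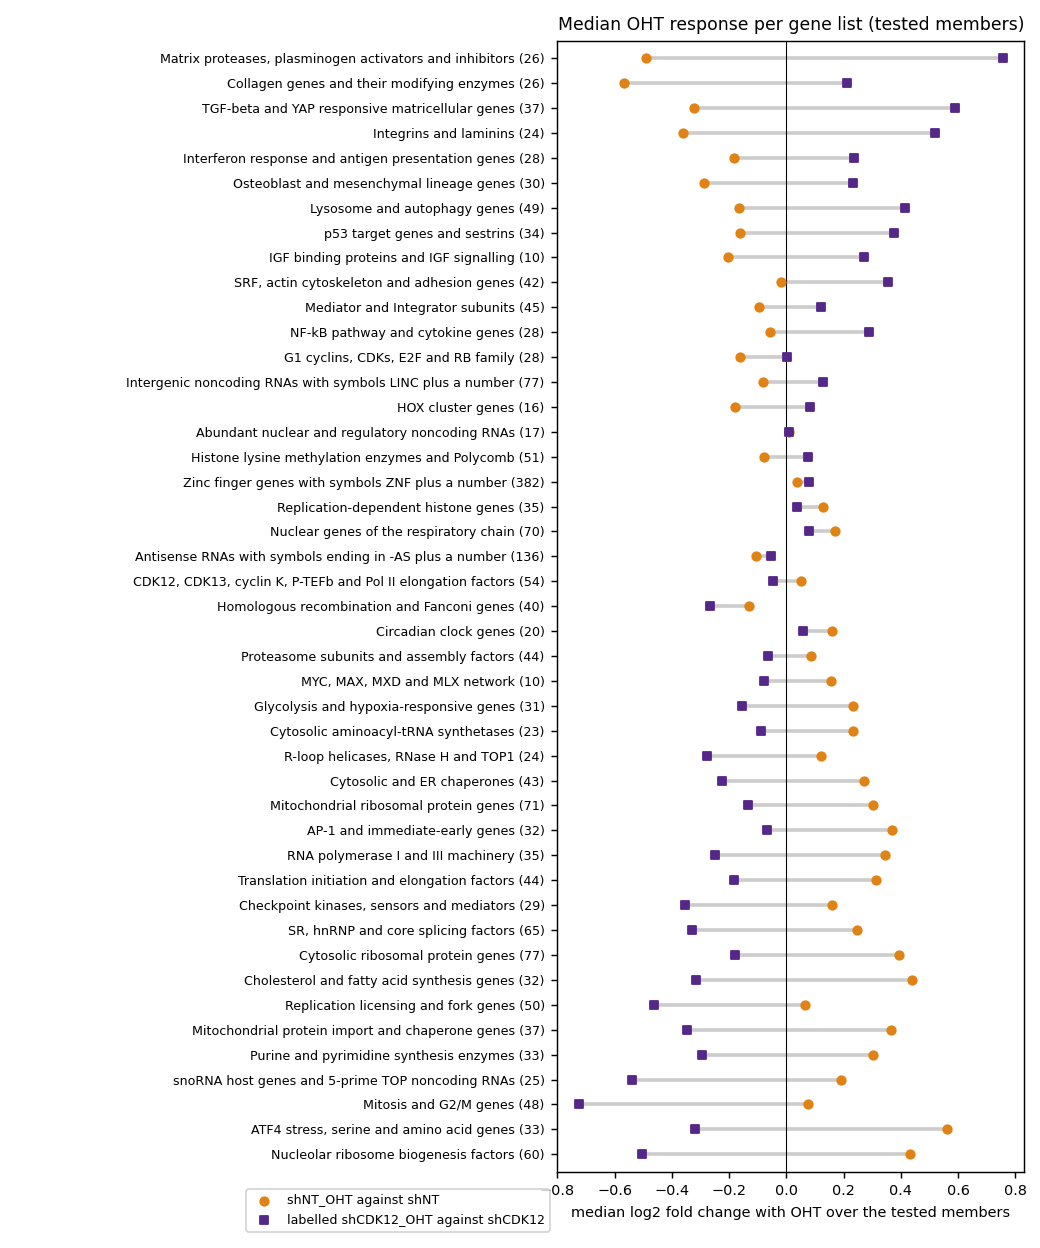
Median log2 fold change with OHT over the tested members of each of 45 lists, in shNT (circles) and in the libraries labelled shCDK12 (squares), in the order of the list medians of the interaction. The circle is right of 0 and the square left of 0 in the ribosome biogenesis, ribosomal protein and sterol lists, whereas for mitosis genes the circle is near 0 (0.07) and the square at -0.73.

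In the RNA processing lists, splicing factors had 40 of 65 lower and 1 higher. HNRNPAB, an RNA-binding protein, was at 168, 184 and 167 CPM in shNT, 262, 226 and 259 in shNT_OHT, 212, 199.8 and 219 in the libraries labelled shCDK12 and 126, 146 and 140.0 in those labelled shCDK12_OHT. It differed in opposite directions in the 2 pairs, without overlap, with an interaction of -1.14 ± 0.14 (edgeR adjusted p = 2.25e-06). PRPF19, a core factor of the spliceosome, had -1.60 ± 0.21 (edgeR adjusted p = 3.99e-06, from 0.84 and -0.76), and CLK4, a kinase of splicing factors, was the higher member (0.96 ± 0.29, edgeR adjusted p = 0.0104, from -0.63 and 0.33), with overlapping groups in the libraries labelled shCDK12. Among 24 genes of R-loop removal and TOP1, 10 were lower, including SRSF1 (-1.11 ± 0.20, from 0.46 and -0.65) and the helicase DDX21 (-0.87 ± 0.16, from 0.30 and -0.57), and 1 was higher. SRSF1 is also counted in the splicing list and DDX21 in the ribosome biogenesis list.

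Transcription elongation genes, the list that holds CDK12 itself, were close to or below the shares of all tested genes, with 6 higher and 11 lower of 54. CDK12 was among the lower ones. From the values given above it rose in shNT (0.39) and fell in the libraries labelled shCDK12 (-0.44), with an interaction of -0.83 ± 0.13 (edgeR adjusted p = 4.55e-05). ELOA, elongin A, had -1.37 ± 0.14 (edgeR adjusted p = 2.82e-07, from 0.66 and -0.71), and CPSF6, of the cleavage machinery, -1.55 ± 0.21 (edgeR adjusted p = 6.38e-06, from 0.67 and -0.88). AFF1, a scaffold of the super elongation complex, was higher (1.07 ± 0.14, edgeR adjusted p = 5.56e-06, from -0.57 and 0.50). Mediator and Integrator subunits had 14 higher and 6 lower of 45, with CDK19, a Mediator kinase (1.73, from -1.07 and 0.66), and MED26, which recruits elongation factors (-1.56, from 0.54 and -1.03), in opposite directions. Without replicate 1 of the libraries labelled shCDK12_OHT, 13 of the Mediator and Integrator genes passed in place of 20. With all 12 libraries the shares were 31.1% higher and 13.3% lower, against 25.6% and 19.6% of all tested genes. Histone lysine methylation and Polycomb genes had 14 higher (27.5%) and 6 lower (11.8%) of 51. The methyltransferase genes KMT2E (1.10, from -0.52 and 0.58) and KMT2A (0.94, from -0.43 and 0.51) were opposed by SUV39H1 (-1.08, from 0.63 and -0.45).

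Of 48 mitosis and G2/M genes 38 had a lower interaction and 0 a higher one, with a median of -0.82. In shNT 5 rose and 2 fell upon MycER activation, and in the libraries labelled shCDK12 45 fell and 0 rose. The list's mean level relative to shNT was -0.14, 0.15 and 0.14 in shNT_OHT, where replicate 1 differed from the other two, 0.11, 0.22 and 0.16 in labelled shCDK12 and -0.59, -0.57 and -0.53 in labelled shCDK12_OHT. Leaving out replicate 1 of shNT_OHT raised the number of genes past the threshold from 38 to 43. BIRC5 (survivin), of the chromosomal passenger complex, was at 171, 181 and 182 CPM in shNT, 239.7, 259 and 240.4 in shNT_OHT, 236, 227 and 256 in the libraries labelled shCDK12 and 114, 123 and 105 in those labelled shCDK12_OHT. The libraries labelled shCDK12_OHT were below all others, and the interaction was -1.54 ± 0.14 (edgeR adjusted p = 4e-08). KIF20A, a kinesin of cytokinesis, stood at 76.4, 63.8 and 48.6 CPM in shNT, 97.1, 75.1 and 115 in shNT_OHT, 105, 93.2 and 96.0 in the libraries labelled shCDK12 and 37.5, 32.4 and 46.1 in those labelled shCDK12_OHT. Its shNT groups overlapped and its labelled shCDK12 groups did not (-1.96 ± 0.24, edgeR adjusted p = 1.95e-06).

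The promoters of mitosis genes are known for a CHR element beside CCAAT boxes. TTTGAA, read on both strands, was in 66.7% of the 39 windows of the mitosis list against 9.83% of the windows of all tested genes and 15.4% of all windows, and CCAAT, on either strand, in 79.5% against 36.9% and 35.7%. TTTGAA was in 8.69% of the genes with a higher interaction, 10.2% with a lower one and 10.3% without a call. For CCAAT these shares were 33.1%, 40.8% and 37.4%. Histone windows held CCAAT in 84.4% and TTTGAA in 37.5%, and CCAAT was in 69.2% of sterol and 65.2% of checkpoint windows. The 3 members with the smallest p-values whose window holds TTTGAA, chosen after their values were seen, are shown with it in capitals (TTCAAA on the opposite strand).
CDCA8: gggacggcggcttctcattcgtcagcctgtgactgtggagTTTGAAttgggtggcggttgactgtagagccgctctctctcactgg
KIF23: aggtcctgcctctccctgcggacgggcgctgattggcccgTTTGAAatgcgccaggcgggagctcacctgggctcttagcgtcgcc
CDC20: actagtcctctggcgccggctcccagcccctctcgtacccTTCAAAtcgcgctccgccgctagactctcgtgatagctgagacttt
They lie on the plus strand at chr1:37692453-37692538, chr15:69414254-69414339 and chr1:43358763-43358848 (RefSeq, GRCh38.p14). Their interactions were -1.16 ± 0.18, -0.86 ± 0.13 and -1.21 ± 0.19 (edgeR adjusted p = 2.72e-05, 3.28e-05 and 3.32e-05). For CDCA8, KIF23 and CDC20 in turn the responses were 0.30, 0.13 and 0.35 in shNT and -0.86, -0.73 and -0.87 in the libraries labelled shCDK12.

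Of 50 licensing and fork genes 24 were lower and 1 higher, with 5 rising in shNT and 26 falling in the libraries labelled shCDK12. POLE3, of DNA polymerase epsilon, was at 152, 156 and 151 CPM in shNT, 190.2, 233 and 219 in shNT_OHT, 355, 398 and 435 in the libraries labelled shCDK12 and 224, 237 and 221 in those labelled shCDK12_OHT. It was highest in the libraries labelled shCDK12, and its interaction was -1.28 ± 0.14 (edgeR adjusted p = 7.91e-07). GINS3, of the replicative helicase, had -1.44 ± 0.17 (edgeR adjusted p = 1.11e-06, from 0.55 and -0.88). Checkpoint genes were lower for 15 of 29, with H2AX (-1.54 ± 0.18, edgeR adjusted p = 1.15e-06, from 0.57 and -0.97) and PARP1 (-1.23 ± 0.15, edgeR adjusted p = 2.75e-06, from 0.65 and -0.58) first, and ATM, the kinase of DNA breaks, was the only higher one (0.75 ± 0.25, edgeR adjusted p = 0.0195, from -0.78 and -0.03). Homologous recombination and Fanconi genes, known as sensitive to loss of CDK12, had 5 higher (12.5%) and 6 lower (15%) of 40, so 29 did not pass. Both shares were below the 25.6% and 19.6% of all tested genes, and without replicate 2 of shNT 7 genes passed in place of 11. In that list 8 genes fell and 2 rose in shNT, and 14 fell and 1 rose in the libraries labelled shCDK12. Among all tested genes 14.4% fell and 13.5% rose in shNT, and 15.9% fell and 21.5% rose in the libraries labelled shCDK12. PALB2, the partner of BRCA2, was at 103, 93.5 and 88.7 CPM in shNT, 97.4, 143 and 143 in shNT_OHT, 181, 145 and 153 in the libraries labelled shCDK12 and 89.4, 89.1 and 92.0 in those labelled shCDK12_OHT. The shNT groups overlapped, and the interaction was -1.23 ± 0.19 (edgeR adjusted p = 3.41e-05). Without OHT, PALB2 stood above shNT in the libraries labelled shCDK12. Of the list 16 genes were lower there and 8 higher (30.1% and 26.6% of all tested genes).

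The G1 and E2F list held genes of both directions, with 12 higher and 7 lower of 28. CCND1, cyclin D1, was at 683, 701 and 631 CPM in shNT, 302, 346 and 307 in shNT_OHT, 212, 222 and 198 in the libraries labelled shCDK12 and 321, 319.6 and 297 in those labelled shCDK12_OHT. It fell 2.12-fold in shNT and rose 1.48-fold in the libraries labelled shCDK12, with an interaction of 1.65 ± 0.13 (edgeR adjusted p = 6.8e-09). CCND2, cyclin D2, was at 545, 509 and 462 CPM in shNT, 1228, 1295 and 1261 in shNT_OHT, 1806, 1738 and 1770.2 in the libraries labelled shCDK12 and 890.3, 902 and 903 in those labelled shCDK12_OHT. It rose 2.49-fold in shNT and fell 1.97-fold in the libraries labelled shCDK12, and its interaction was -2.30 ± 0.12 (edgeR adjusted p = 1.26e-11). CDKN1A, which encodes the CDK inhibitor p21, rose in the libraries labelled shCDK12 alone (0.80) and overlapped in shNT (0.85 ± 0.13, edgeR adjusted p = 2.67e-05, from -0.05 and 0.80). Replication-dependent histone genes had 6 higher (17.1%) and 9 lower (25.7%) of 35 tested, while 20 more of the list were too low to test. H2BC12 was lower (-1.35, from 0.38 and -0.96) and H1-1 higher (1.18, from -0.77 and 0.41), and these genes have near-identical copies that may share reads.

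Targets of p53 had 19 of 34 members higher and 0 lower, with a median of 0.56. TP53INP1, which acts in autophagy and cell death, was at 309, 342 and 285 CPM in shNT, 128, 137 and 143 in shNT_OHT, 113, 126 and 117 in the libraries labelled shCDK12 and 312, 311 and 311 in those labelled shCDK12_OHT. It fell 2.31-fold in shNT and rose 2.62-fold in the libraries labelled shCDK12, back to the level of shNT, with an interaction of 2.59 ± 0.14 (edgeR adjusted p = 3.27e-11). In the list 10 genes fell and 5 rose in shNT, and 19 rose and 1 fell in the libraries labelled shCDK12. Lysosome and autophagy genes were higher for 24 of 49 and lower for 2. CTSB, the protease cathepsin B, was at 290.5, 314 and 329 CPM in shNT, 170.1, 152 and 149 in shNT_OHT, 63.9, 61.7 and 65.5 in the libraries labelled shCDK12 and 154, 159 and 195 in those labelled shCDK12_OHT. Both pairs were apart in opposite directions, and the interaction was 2.39 ± 0.16 (edgeR adjusted p = 5.8e-10). GABARAPL1, of autophagosome formation, had 1.63 ± 0.17 (edgeR adjusted p = 4.1e-07, from -0.49 and 1.15), and GLA, a lysosomal galactosidase, was one of the lower ones (-0.87, from 0.28 and -0.59), although its shNT groups overlapped.

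Interferon-response and antigen presentation genes were higher for 15 and lower for 5 of 28 tested, with 23 of the list too low to test. With every library thinned to 1251695 counts, 10 passed in place of 20 and the median less that of all genes was 0.10 in place of 0.59, while depth moved with the groups. PARP14 was at 134, 133 and 117 CPM in shNT, 62.3, 88.3 and 68.1 in shNT_OHT, 34.5, 40.0 and 49.4 in the libraries labelled shCDK12 and 78.2, 77.1 and 78.7 in those labelled shCDK12_OHT. Neither pair overlapped, and the interaction was 1.76 ± 0.20 (edgeR adjusted p = 1.01e-06). DTX3L, its neighbour and a ubiquitin ligase, had 1.41 ± 0.19 (edgeR adjusted p = 4.92e-06, from -0.94 and 0.47). HLA-B, an antigen-presenting class I gene, was lower (-2.11 ± 0.17, edgeR adjusted p = 8.36e-09, from 1.33 and -0.78), and its reads may be shared with its paralogs. NF-kB pathway and cytokine genes had 11 higher and 4 lower of 28, with IL11 (1.76 ± 0.18, edgeR adjusted p = 2.33e-07, from -0.49 and 1.27) among the higher and NFKBIB, an inhibitor of NF-kB, among the lower (-1.46, from 0.85 and -0.61).

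AP-1 and immediate-early genes were mostly lower, 18 against 7 of 32. DUSP2, a phosphatase of MAP kinases, was at 568, 577 and 533 CPM in shNT, 1341, 1344 and 1509 in shNT_OHT, 1517, 1586 and 1790.4 in the libraries labelled shCDK12 and 942, 1111 and 897 in those labelled shCDK12_OHT. The rise in shNT was 2.50-fold and the fall in the libraries labelled shCDK12 1.66-fold, an interaction of -2.05 ± 0.14 (edgeR adjusted p = 7.18e-10). FOSL2, an AP-1 subunit, was at 1357, 1389 and 1299 CPM in shNT, 1045, 895 and 882 in shNT_OHT, 244, 233 and 251 in the libraries labelled shCDK12 and 593, 603 and 576 in those labelled shCDK12_OHT. The libraries labelled shCDK12 were below all others, and the interaction was 1.80 ± 0.12 (edgeR adjusted p = 9.34e-10).

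**Figure D5:**
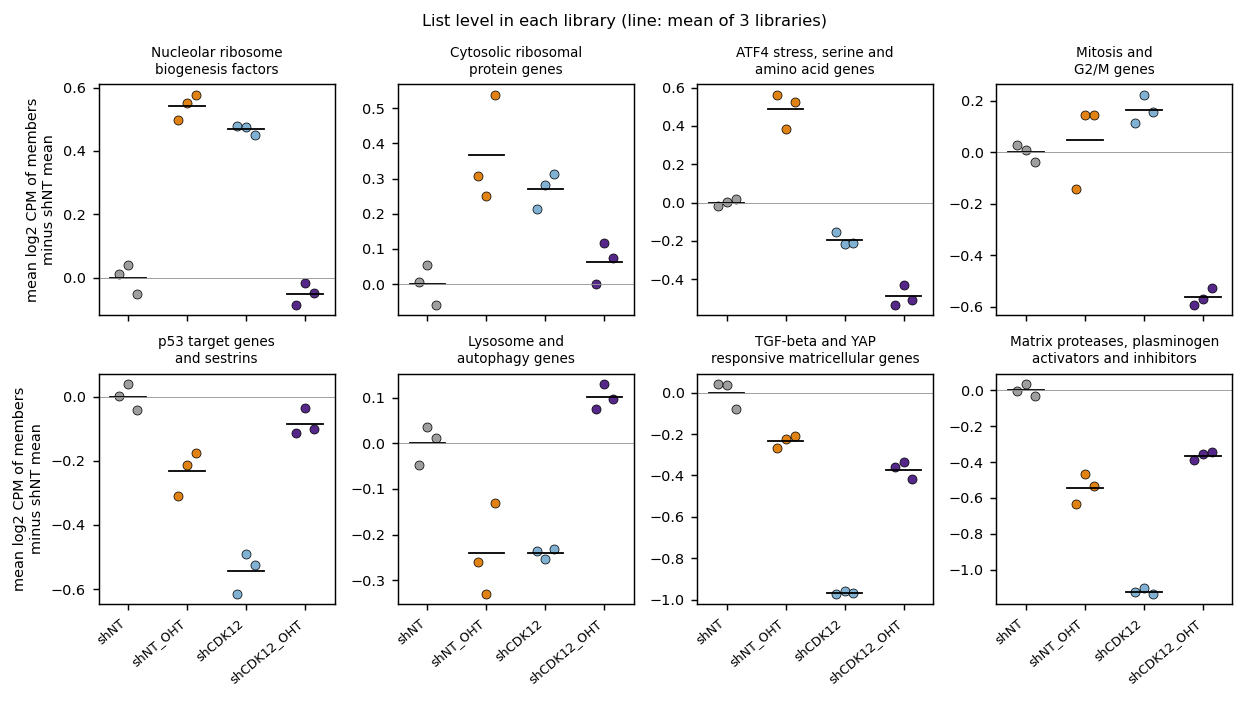
Mean log2 CPM of the tested members of 8 lists in each library, relative to the mean of the 3 shNT libraries (vertical axes), with a line at the mean of each group as labelled. Ribosome biogenesis factors are raised in shNT_OHT and labelled shCDK12, mitosis genes are lowest in labelled shCDK12_OHT, and TGF-beta and protease genes are lowest in labelled shCDK12.

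Genes responsive to TGF-beta and YAP, which build and sense the matrix, were higher for 28 of 37 and lower for 3. Relative to shNT their mean level was -0.27, -0.22 and -0.21 in shNT_OHT, -0.97, -0.96 and -0.97 in labelled shCDK12 and -0.36, -0.34 and -0.42 in labelled shCDK12_OHT, so the libraries labelled shCDK12 without OHT were the lowest. PMEPA1, a feedback inhibitor of TGF-beta signalling, was at 764, 780.1 and 781 CPM in shNT, 459, 445 and 387 in shNT_OHT, 65.8, 65.2 and 63.1 in the libraries labelled shCDK12 and 295, 315 and 283 in those labelled shCDK12_OHT. It fell 1.80-fold in shNT and rose 4.60-fold in the libraries labelled shCDK12, with an interaction of 3.05 ± 0.13 (edgeR adjusted p = 1.76e-12). TGFBI, a secreted matrix protein, had 572, 639 and 575 CPM in shNT, 352, 308 and 386 in shNT_OHT, 45.6, 49.5 and 50.9 in the libraries labelled shCDK12 and 266, 293 and 305 in those labelled shCDK12_OHT, the same order of groups, and an interaction of 3.33 ± 0.15 (edgeR adjusted p = 1.85e-12). BAMBI, a decoy receptor of the pathway, was one of the lower genes (-2.33 ± 0.20, edgeR adjusted p = 2.2e-08, from 1.03 and -1.31).

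The proteases and their inhibitors included PLAU, described above. ADAMTS1, which cleaves proteoglycans, was the 1 lower member of the list (-1.37 ± 0.22, edgeR adjusted p = 5.83e-05, from 0.86 and -0.50). Of the list 14 genes fell in shNT and 18 rose in the libraries labelled shCDK12, and 11 members were too low to test.

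Collagens and their modifying enzymes were higher for 15 and lower for 3 of 26, with 15 more too low to test. LOXL4, a collagen cross-linking enzyme, was at 372, 397 and 359 CPM in shNT, 154, 143 and 123 in shNT_OHT, 33.8, 34.5 and 40.5 in the libraries labelled shCDK12 and 123, 122 and 135 in those labelled shCDK12_OHT. It was highest in shNT, lowest in the libraries labelled shCDK12 and overlapping in the other two groups, with an interaction of 3.23 ± 0.16 (edgeR adjusted p = 1.01e-11). COL6A3, a chain of collagen VI, had 2.17 ± 0.19 (edgeR adjusted p = 3.42e-08, from -0.75 and 1.42). Integrins and laminins were higher for 15 of 24 and lower for 1. FN1, fibronectin, was at 656, 653 and 669 CPM in shNT, 393, 310.2 and 338 in shNT_OHT, 41.0, 35.2 and 38.5 in the libraries labelled shCDK12 and 104, 88.1 and 108 in those labelled shCDK12_OHT. OHT lowered it in shNT and raised it in the libraries labelled shCDK12, where it stayed below every shNT library (2.31 ± 0.16, edgeR adjusted p = 7.78e-10). ITGA3, a laminin receptor chain, followed with 1.72 ± 0.16 (edgeR adjusted p = 5.69e-08, from -0.67 and 1.05), and LAMC3, a laminin chain, was the lower member (-2.39 ± 0.36, edgeR adjusted p = 2.64e-05, from 1.52 and -0.87).

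Actin cytoskeleton and SRF target genes had 18 higher and 7 lower of 42. FHL2, a LIM-domain coactivator, was higher (1.18 ± 0.13, edgeR adjusted p = 4.28e-07, from -0.21 and 0.97), and TAGLN, an actin-binding protein, was lower through its rise in shNT alone. TAGLN was at 175, 177 and 144 CPM in shNT, 442, 303 and 388 in shNT_OHT, 75.0, 82.0 and 88.1 in the libraries labelled shCDK12 and 89.5, 97.2 and 77.8 in those labelled shCDK12_OHT. The labelled shCDK12 groups overlapped, and the interaction was -1.08 ± 0.19 (edgeR adjusted p = 9.21e-05). Osteoblast and mesenchymal genes had 16 higher and 7 lower of 30 tested. Another 15 of the list were too low to test, among them the osteoblast genes SP7, ALPL, BGLAP, IBSP and SPP1. The 2 Snail factors were opposed. SNAI2 was at 175, 191 and 171 CPM in shNT, 74.9, 79.2 and 87.6 in shNT_OHT, 33.6, 34.4 and 33.9 in the libraries labelled shCDK12 and 45.8, 42.1 and 46.4 in those labelled shCDK12_OHT. It was highest in shNT (1.55 ± 0.17, edgeR adjusted p = 4.26e-07). SNAI1 was at 227, 193 and 154 CPM in shNT, 429.8, 295 and 371 in shNT_OHT, 498, 462 and 467 in the libraries labelled shCDK12 and 235, 245 and 189.6 in those labelled shCDK12_OHT. It was low in shNT and labelled shCDK12_OHT (-2.02 ± 0.20, edgeR adjusted p = 1.14e-07).

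Genes of insulin-like growth factor signalling had 4 higher and 0 lower of 10, with IGF2R, a clearance receptor, at 0.85 ± 0.15 (from -0.40 and 0.45) after IGFBP5. HOX cluster genes were split between 5 higher, such as HOXB3 (1.86 ± 0.23, from -0.64 and 1.23), and 3 lower, such as HOXC8 (-2.48 ± 0.24, from 1.15 and -1.33), of 16. The HOX shares of 31.25% and 18.75% were near the 25.6% and 19.6% of all tested genes. Circadian clock genes had 6 higher and 6 lower of 20 (30% each). NR1D1, the repressor REV-ERB alpha, was at 55.3, 43.5 and 39.1 CPM in shNT, 224, 129.5 and 175 in shNT_OHT, 197, 175 and 184 in the libraries labelled shCDK12 and 64.3, 70.4 and 54.2 in those labelled shCDK12_OHT. It was high in shNT_OHT and labelled shCDK12, and its interaction of -3.49 was the lowest of the list. BHLHE40, an E-box repressor, rose in the libraries labelled shCDK12 alone (1.04) and had an interaction of 0.88 ± 0.12 (edgeR adjusted p = 4.48e-06, from 0.16 and 1.04).

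Of 17 nuclear noncoding RNAs 4 were higher (23.5%) and 6 lower (35.3%). MALAT1, an abundant nuclear RNA, was at 3251, 3241 and 3550.3 CPM in shNT, 1603, 1993 and 1757 in shNT_OHT, 1612, 1619 and 1732 in the libraries labelled shCDK12 and 2869, 2669 and 3052 in those labelled shCDK12_OHT. It was high in shNT and labelled shCDK12_OHT, with no overlap in either pair and an interaction of 1.70 ± 0.13 (edgeR adjusted p = 3.04e-09). RPPH1, the RNA of ribonuclease P made by polymerase III, was lower (-1.53 ± 0.19, edgeR adjusted p = 1.91e-06, from 1.00 and -0.52). Genes named LINC plus a number had 23 higher (29.9%) and 12 lower (15.6%) of 77, and antisense RNAs 25 (18.4%) and 26 (19.1%) of 136. These shares were near or below those of all tested genes, 25.6% higher and 19.6% lower. Among the antisense RNAs C10orf95-AS1 (-3.42 ± 0.40, from 2.41 and -1.01) and LOXL1-AS1 (2.55 ± 0.32, from -1.42 and 1.13) were opposed. They overlap C10orf95 and LOXL1 on the other strand, and without the strand setting their reads cannot be told from those of these partners. The 382 tested ZNF genes divided into 82 higher (21.5%) and 86 lower (22.5%), also near the shares of all tested genes. Single members with large interactions were ZNF704 (-2.99 ± 0.16, from 1.44 and -1.54) and ZNF608 (1.90 ± 0.18, from -0.69 and 1.21).

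Gene length and level moved with the calls. By the gene's span in GENCODE v44, which matched 98.4% of tested genes, split into 5 groups of equal size, the group of shortest genes (median 5.41 kb) had 16.2% higher and 30.8% lower with a median interaction of -0.21, and the group of longest genes (median 167 kb) had 36.6% higher and 10.6% lower with a median of 0.41. In the longest genes the median response was -0.24 in shNT and 0.16 in the libraries labelled shCDK12, and in the shortest it was 0.20 and -0.03. The share of genes called either way rose with the level, from 31.6% in the lowest of 5 such groups by mean CPM (6.21 to 14.4 CPM) to 59.2% in the highest. The part of length or level in the list results was not tested.

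Of the 139 genes named by rule, 40 overlap a gene on the other strand in the annotation, and the strand setting of the counting is not given in the sources used here, so reads of the partners cannot be told apart. Among those described above they include PLAU, AHNAK2, ABCA3, MAX, CCNK, EBNA1BP2, GTF3C4, EIF5A, ELOA, CPSF6, HNRNPAB, POLE3, CCND1, KIF20A, TP53INP1, DTX3L, TAGLN, NR1D1, BHLHE40, C10orf95-AS1 and LOXL1-AS1. The interaction had the same sign in every alternative fit in which a gene was tested, which was 129 of the 139 genes at a mean count above 100 and 122 after thinning. It lost its call in at least 1 of them for 8: ATM, ATP5F1C, DNAJC3, GLA, ORC5, QARS1, SLX4 and TOMM70.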

How the data were processed

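EU-seq, the sequencing of nascent RNA labelled with 5-ethynyl-uridine, was available for 12 libraries as 1 table of raw counts per gene deposited by the authors, without normalization. The submitters' processing notes name hg19, STAR 2.7.5c and featureCounts 1.4.5-p1, while the strand setting, the annotation and the handling of reads from the added mouse RNA are not given in the sources used here. No mouse rows were used, so a change in total nascent RNA cannot be seen. Of 23434 gene identifiers, 23284 matched a symbol in RefSeq (GRCh38.p14), and no coordinates of that build were set against the hg19 files.

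Genes with a mean normalized count above 32 were tested. Counts were scaled by TMM over all genes and fitted with the quasi-likelihood test of edgeR 4.0.16 (R 4.3.3) in a design of 4 groups, with contrasts for the interaction and for each response, and p-values were adjusted by Benjamini-Hochberg over all 11699 tested genes. The ± values are standard errors. Named genes were CDK12, CDK13, CCNK, MYC and MAX, the 8 highest and 8 lowest interactions as defined above, and in each of 45 lists the 2 called genes with the smallest p in the majority direction and 1 in the other, with a mean of at least 10 CPM. The members and lists were chosen with earlier results of these data known. Alternatives were DESeq2 1.42.0, upper-quartile and RLE scaling, TMM over tested genes only (chosen after seeing the data), other count filters, a replicate block, thinning to 1251695 counts, and leaving out each library. On simulated counts of 11606 genes, of which only 100 were changed by 2-fold and 100 by 4-fold, the interaction test recovered 61 and 96 of these, with 13 false calls. The number of false calls with as large a share of changed genes as was called in the data was not tested. Python 3.11.15, pandas 2.3.3, numpy 2.4.6 and matplotlib 3.10.9 were used for summaries and plots, and limma 3.58.1 was loaded with edgeR. A few genes that the rule named are not reported here.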

Additional observations from a re-analysis of the deposited data

Results flagged for a closer look

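By the interaction term, 5289 of the 11699 tested genes changed by a different fold upon MycER activation in shNT and in the libraries labelled shCDK12, in a test with edgeR's quasi-likelihood fit (adjusted p under 0.05). For 1879 genes both responses passed on their own and had opposite signs, and 63 had the same sign. With the OHT labels of the libraries labelled shCDK12 exchanged, the 1879 genes would have the same sign and the 63 opposite ones. CDK12 itself did not pass between shNT and the libraries labelled shCDK12 without OHT in that test, and these values rest on the libraries as labelled.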

How the results depend on the processing

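Against 5289 genes past the threshold for the interaction, DESeq2 called 5374, RLE scaling 5269, TMM over tested genes only (chosen after seeing the data) 5271, upper-quartile scaling 5256, a mean count above 100 4255 and no filter 5863, and no gene called in both changed sign. The share of higher genes among those called was 56.6%, and it was 47.2% under upper-quartile scaling and 48.4% after thinning. Leaving out 1 library gave 4609 to 5829 genes for the interaction, 2322 to 3843 for OHT in shNT and 3247 to 5490 for OHT in the libraries labelled shCDK12.

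Thinning every library to 1251695 counts left 7447 genes to test and called 3187 for the interaction, 1908 for OHT in shNT and 2421 for OHT in the libraries labelled shCDK12. After thinning, the list counts were 7 in place of 14 for the respiratory chain, 10 for 20 in Mediator and Integrator, 6 for 11 in homologous recombination and Fanconi, 10 for 16 in checkpoint, 11 for 19 in G1, 13 for 26 in lysosome, 10 for 20 in interferon, 8 for 18 in collagen, 10 for 16 in integrins, 13 for 24 in proteases, 16 for 25 in actin, 7 for 12 in clock, 108 for 168 in ZNF, 13 for 35 in LINC and 12 for 51 in antisense genes. The list median less that of all genes was then -1.03 in place of -1.14 for ribosome biogenesis, -0.69 for -0.41 in glycolysis, 0.11 for -0.038 in Polycomb, 0.10 for 0.59 in interferon, 0.55 for 0.89 in collagen, 0.66 for 1.08 in proteases and 0.80 for 0.47 in osteoblast genes. With a mean count above 100 it was -1.01 for ribosome biogenesis, -0.43 in place of -0.68 for checkpoint, 0.66 for proteases, 0.73 for osteoblast and 0.41 in place of 0.090 for LINC genes, with 19 LINC and 21 antisense genes called. Fewer genes were tested in both settings.

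Over the 12 fits leaving out 1 library each, that median ranged between -0.70 and -0.54 for RNA polymerases I and III (-0.58 with all 12), between -0.083 and 0.026 for Polycomb and between 0.43 and 0.64 for osteoblast genes. The counts ranged between 9 and 18 for the respiratory chain, 13 and 22 for Mediator and Integrator, and 7 and 15 for homologous recombination and Fanconi genes. The difference of CDK12 between the libraries labelled shCDK12 and shNT without OHT was 0.0096 under upper-quartile scaling (edgeR adjusted p = 0.942), of the other sign, and the cause was not tested. With replicate number as a block 5385 genes were called (3058 higher, 2327 lower). Of 18 pairs of libraries with the same number, 2 had a correlation over 0.1 (-0.092 to 0.304, median 0.028). Of 36 pairs with different numbers 0 did (-0.343 to 0.0996, median -0.019). Whether the numbers pair the libraries was not tested further. The smallest library held 1251695 counts, which limits what can be seen in genes of low level.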
